A study of Mus musculus with 37 samples.

Results

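The repertoire of T cell receptor beta (TRB) genes in lymph nodes of mice given 3 agents was compared with that of mice given PTX alone at day 95 (d95). The comparison holds 11 of the 37 libraries of the series, 1 library per mouse. They are all libraries that the labels place at d95 with the treatment PLX+PTX+aPD-1_R (5 mice) or PLX+PTX+aPD-1_NR (3 mice), counted as 8 triple therapy mice, and all d95 libraries with the treatment PTX (3 mice). All 11 mice were female littermates of the genotype MMTV-PyMT, in which a mouse mammary tumor virus promoter drives the polyoma middle T oncogene mainly in mammary epithelium, so that the tumors arise from a transgene. Triple therapy mice ate chow with PLX3397 (pexidartinib), an inhibitor of the macrophage growth factor receptor CSF1R, which supplied 40 mg/kg per day and was started at 80 days of age. PTX, the usual abbreviation of the cytotoxic drug paclitaxel, was injected at 10 mg/kg starting at 85 days of age, with 5 days between injections. The remaining agent, aPD-1, was the antibody RMP1-14 against the inhibitory receptor PD-1 on T cells; its initial dose of 1.0 mg per mouse was given at 87 days of age, and doses of 0.5 mg followed at the same interval. The label of the PTX group names neither PLX3397 nor aPD-1, so the contributions of these agents cannot be told apart here. The protocol states the PTX schedule for mice on PLX3397 and gives none of its own for PTX mice. The labels do not spell out R and NR, do not name the lymph node, and do not say which mice were given the isotype antibody or the control chow of the protocol. Below, libraries are called R 1 to R 5, NR 1 to NR 3 and PTX 1 to PTX 3, with numbers that follow the order of deposition and pair no mice.

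Each T cell joins a variable segment (TRBV), a diversity segment and a joining segment (TRBJ) of the TRB locus and adds or trims bases at the joints. The resulting complementarity-determining region (CDR3) is the stretch of the receptor that lies over the presented peptide, and a cell that divides passes its CDR3 on to its daughters. In a lymph node most T cells are naive and each clonotype is rare, so a clonal response shows as a few clonotypes with many copies, while segment usage reflects rearrangement, thymic selection and the growth of cells carrying a segment. Here a clonotype is a combination of TRBV, TRBJ and amino acid CDR3, and its reads come from rearranged genomic DNA, not from transcripts.

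Some of the clonotypes named below are shown first, as examples chosen by segment or by presence in these libraries. No single clonotype was called in the edgeR test given below. Each is printed as its leading nucleotide form, the CDR3 with more reads than any other form of that clonotype in the 11 libraries. Capitals mark junction bases, which match neither the consensus start of CDR3s with that TRBV segment nor the consensus end of those with that TRBJ segment. Each consensus was built from the clonotypes of the whole series and not from a reference. A base in small letters therefore need not be encoded by the segment. The first group holds 4 of the 6 clonotypes found in all 11 libraries, chosen because they carry TRBV3, the segment with the clearest difference between the arms.
TRBV3 TRBJ2-7 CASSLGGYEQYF: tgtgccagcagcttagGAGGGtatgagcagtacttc
TRBV3 TRBJ2-7 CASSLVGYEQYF: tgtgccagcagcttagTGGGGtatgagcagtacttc
TRBV3 TRBJ2-7 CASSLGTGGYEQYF: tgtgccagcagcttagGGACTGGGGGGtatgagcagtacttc
TRBV3 TRBJ1-1 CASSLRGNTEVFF: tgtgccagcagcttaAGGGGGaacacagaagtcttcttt

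The clonotypes of the second group were found in at least 7 of the 8 triple therapy libraries and in no PTX library. The last 2 clonotypes were found in all 3 PTX libraries and in no triple therapy library. These counts cover all nucleotide forms of a clonotype. The printed forms of the second group were each found in 1 to 4 libraries, and those of the last 2 clonotypes in 1 library each.
TRBV26 TRBJ1-1 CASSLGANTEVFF: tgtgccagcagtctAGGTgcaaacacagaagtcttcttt
TRBV24 TRBJ2-5 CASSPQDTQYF: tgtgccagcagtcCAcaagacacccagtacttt
TRBV1 TRBJ1-1 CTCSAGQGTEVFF: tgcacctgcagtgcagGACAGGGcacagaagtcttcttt
TRBV1 TRBJ1-1 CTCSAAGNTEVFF: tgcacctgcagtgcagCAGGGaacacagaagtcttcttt
TRBV1 TRBJ2-1 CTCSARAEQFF: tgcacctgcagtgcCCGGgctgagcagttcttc
TRBV19 TRBJ1-1 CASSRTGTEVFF: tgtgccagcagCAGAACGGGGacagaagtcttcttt

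The library NR 1 stood apart before any comparison was made. It held 90648 reads and 2470 nucleotide clonotypes, whereas the other 7 triple therapy libraries held 416493 to 917752 reads and 14631 to 32057 clonotypes. The PTX libraries held 287575 to 509898 reads and 14420 to 19714 clonotypes. The median clonotype had 15 to 31 reads in the triple therapy libraries and 14 to 22 in the PTX libraries. In every library 27.7% to 34.1% of the clonotypes had fewer than 5 reads, and together these held 1.38% to 3.27% of the reads. Results that rest on NR 1 are given with and without it.

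TRBV3 was the segment with the strongest evidence of a difference, and its share of reads was higher under triple therapy. It made up 12.8%, 11.3%, 10.8%, 11.6% and 7.79% of the reads in R 1 to R 5, and 10.98%, 10.2% and 12.8% in NR 1 to NR 3. In PTX 1 to PTX 3 it made up 7.79%, 7.69% and 5.25%. The 2 arms did not overlap, but the gap rested on R 5, which lay next to PTX 1, and the other 7 triple therapy libraries were all above 10%. The mean was 11.04% ± 1.60 (SD, n = 8) against 6.91% ± 1.44 (SD, n = 3), a log2 difference of 0.68 with a standard error of 0.15 and an adjusted p of 0.00937 (edgeR quasi-likelihood test, Benjamini-Hochberg over 24 segments). In the reference gene order (GRCm38.p6) the TRBV3 segment lies between TRBV2 and TRBV4.

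TRBV20, a rarely used segment that lies between TRBV19 and TRBV21 in the same order, also rose under triple therapy. Its share was 1.10%, 0.537%, 0.423%, 0.561% and 0.118% of the reads in R 1 to R 5, and 0.311%, 0.477% and 0.727% in NR 1 to NR 3. It was 0.186%, 0.107% and 0.0351% in PTX 1 to PTX 3. All triple therapy libraries except R 5 lay above all PTX libraries, and R 5 lay between PTX 1 and PTX 2. The mean of 0.531% ± 0.291 (SD, n = 8) stood against 0.109% ± 0.0752 (SD, n = 3), a log2 difference of 2.28 with a standard error of 0.61 and an adjusted p of 0.0261 (edgeR). When only clonotypes with at least 5 reads were counted, TRBV20 was not called (edgeR).

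**Figure D1:**
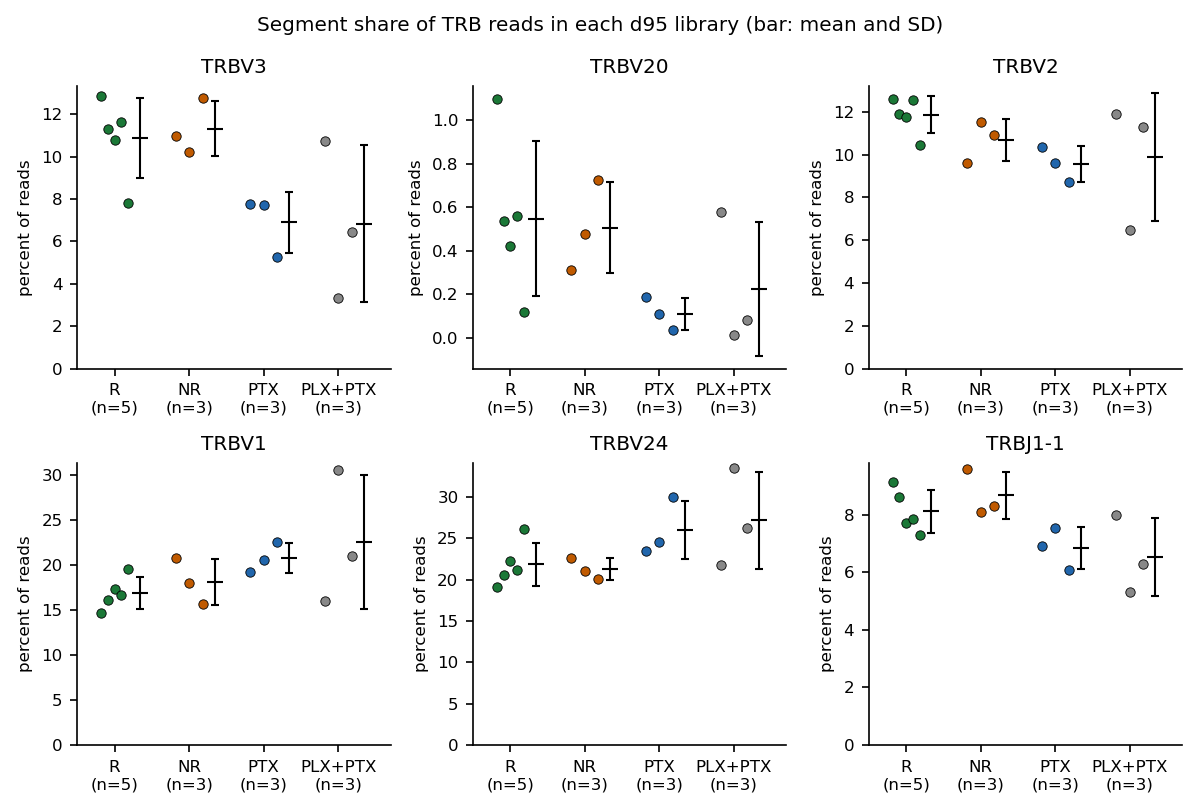
Share of TRB reads, in percent of the reads of a library, for 6 segments in each d95 library; points are libraries, and the horizontal mark and bar beside them give the group mean and SD for R (n = 5), NR (n = 3), PTX (n = 3) and PLX+PTX (n = 3). TRBV3 lies at 7.79% to 12.8% in the R and NR libraries and at 5.25% to 7.79% in PTX, and the PLX+PTX libraries lie at 10.8%, 3.34% and 6.43%.

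These were the 2 segments called of 24 tested (8.33%), both higher in triple therapy and none lower. The median log2 difference over the 24 segments was 0.01. Scaling moved the split of calls: with TMM factors (trimmed mean of M values) edgeR called 3 segments higher and 6 lower, and DESeq2 called 5 higher and 5 lower, and both sets held TRBV3 and TRBV20. The call count depended on single libraries: without PTX 3, the library with the lowest TRBV3 share, no segment was called (2 at an unadjusted p under 0.05), and TRBV3 had a log2 difference of 0.51 with an adjusted p of 0.0704 (edgeR). Without NR 1 there were 10 calls, without R 5 there were 12 and without PTX 1 there were 11, each set holding TRBV3 and TRBV20; without R 4 or without PTX 2 TRBV3 was the 1 call.

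A further 10 segments had an unadjusted p under 0.05 and missed the adjusted threshold in the edgeR fit. TRBJ1-1 made up 9.15%, 8.63%, 7.71%, 7.84% and 7.30% of the reads in R 1 to R 5, 9.59%, 8.10% and 8.31% in NR 1 to NR 3, and 6.90%, 7.52% and 6.09% in PTX 1 to PTX 3. Its log2 difference was 0.28 with an adjusted p of 0.0517 (edgeR), and the arms overlapped through R 5 and PTX 2. TRBV2 averaged 11.4% ± 1.03 (n = 8) against 9.56% ± 0.826 (n = 3), with a log2 difference of 0.26 and an adjusted p of 0.0573 (edgeR). TRBV24, the segment with the largest mean share of all TRBV segments in both arms, was at 19.2%, 20.6%, 22.2%, 21.2% and 26.1% in R 1 to R 5, at 22.7%, 21.1% and 20.1% in NR 1 to NR 3, and at 23.4%, 24.5% and 30.0% in PTX 1 to PTX 3. Its log2 difference was -0.26 with an adjusted p of 0.0573 (edgeR), and R 5 lay inside the range of the PTX libraries. TRBV1 averaged 17.3% ± 2.03 (n = 8) against 20.8% ± 1.66 (n = 3), a log2 difference of -0.26 with an adjusted p of 0.0573 (edgeR), and here R 5 and NR 1 lay among the PTX libraries. TRBJ2-1 was the second segment whose arms did not overlap in reads, at 9.40% to 11.5% under triple therapy and 11.9% to 12.4% in PTX, with a log2 difference of -0.18 and an adjusted p of 0.0573 (edgeR). Such separation was seen for 2 of 24 segments (8.33%).

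The remaining segments with an unadjusted p under 0.05 were small in share or in difference. TRBV4 was at 6.59% ± 0.798 against 5.50% ± 0.793, TRBJ1-3 at 1.42% ± 0.161 against 1.12% ± 0.208 and TRBJ1-5 at 0.173% ± 0.0666 against 0.0834% ± 0.0315 (SD, n = 8 and n = 3). TRBJ2-3 was at 8.59% ± 0.648 against 9.74% ± 0.570 and TRBJ2-5 at 10.4% ± 0.527 against 11.7% ± 1.24. The adjusted p of these 5 segments ran from 0.0608 to 0.0741 (edgeR).

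The 12 other segments had no unadjusted p under 0.05. TRBJ2-7, the most used joining segment in both arms, held 28.5% ± 1.40 of the reads (n = 8) against 27.2% ± 1.16 (n = 3), with a log2 difference of 0.07. TRBJ2-2 was at 9.42% ± 0.452 against 8.64% ± 0.710, TRBJ1-6 at 7.20% ± 0.217 against 7.60% ± 0.359, TRBJ2-4 at 6.80% ± 0.608 against 6.82% ± 0.366, TRBJ1-2 at 6.09% ± 0.456 against 6.15% ± 0.537 and TRBJ1-4 at 2.38% ± 0.304 against 1.97% ± 0.312. Among the variable segments, TRBV19 was at 11.5% ± 1.27 against 12.0% ± 1.02, TRBV29 at 6.94% ± 0.595 against 6.09% ± 0.991, TRBV5 at 6.01% ± 0.954 against 6.10% ± 0.355 and TRBV26 at 5.57% ± 0.650 against 5.47% ± 0.306. TRBV23 was at 0.744% ± 0.125 against 0.787% ± 0.157 and TRBV30 at 0.617% ± 0.0723 against 0.621% ± 0.107. None of these 12 differences could be told from the spread between mice by this test.

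Segments were also read by the groups they are known for. Endogenous mammary tumor virus superantigens bind receptors through particular variable segments and delete the T cells that carry them; of 8 segments linked to such superantigens, 7 were tested and none was called, with 4 higher and 3 lower and a median log2 difference of 0.03 against 0.01 over all segments (3 higher and 4 lower with TMM factors, median -0.04). Together the 8 segments held 81.0% ± 2.06 of the reads under triple therapy and 85.4% ± 1.66 in PTX. The arms overlapped, with R 5 at 84.4% and PTX 2 at 84.0%. TRBV3 is not on this list, and because shares are parts of a whole the sum is not independent of the TRBV3 difference. No summed share in this paragraph was tested. Invariant T cells, such as natural killer T cells and mucosal-associated invariant T cells, use a restricted set of variable segments; 3 of 6 such segments were tested (1 higher, 2 lower, none called), and the 6 together held 35.8% ± 2.62 against 38.9% ± 0.306. The 9 segments that FVB/N mice are known to lack were all below the 0.1% share needed for testing and together held 0.149% of the reads in NR 1, 0.00240% to 0.0267% in the other 7 triple therapy libraries and 0.0210%, 0.0379% and 0.0240% in PTX 1 to PTX 3. The triple therapy mean of 0.0285% ± 0.0494 (n = 8) rested on NR 1 and was 0.0113% ± 0.00916 (n = 7) without it, against 0.0276% ± 0.00898 in PTX; this list was not tested. The first joining cluster, TRBJ1, held 25.6% ± 1.45 against 23.8% ± 0.953 and the second, TRBJ2, held 74.4% ± 1.45 against 76.2% ± 0.953 (SD, n = 8 and n = 3).

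For TRBV3 and TRBV20, the called segments, the larger part of the difference lay in reads per clonotype and the smaller part in how many clonotypes used the segment. When each clonotype was counted once, none of the 24 segments was called (5 at an unadjusted p under 0.05, edgeR). TRBV3 then made up 13.02% ± 0.756 of the clonotypes (n = 8) against 11.8% ± 0.928 (n = 3), a log2 difference of 0.14 with an adjusted p of 0.146 (edgeR), and the arms overlapped. A TRBV3 clonotype, however, held 0.951, 0.825, 0.884, 0.877 and 0.669 times the reads of an average clonotype of its library in R 1 to R 5, 0.837, 0.797 and 0.923 times in NR 1 to NR 3, and 0.681, 0.597 and 0.471 times in PTX 1 to PTX 3. Only R 5 overlapped the PTX libraries in this ratio. Tested across the 24 segments on the log2 scale with limma, an analysis added after the segment calls were seen, 5 segments differed (20.8%), all with more reads per clonotype under triple therapy.

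For TRBV3 the ratio accounted for 0.54 of a log2 difference of 0.68 in read share (limma, adjusted p 0.0150) and the share of clonotypes for 0.14. For TRBV20 the ratio accounted for 1.51 (limma, adjusted p 0.0231) and the share of clonotypes for 0.85 of a log2 difference of 2.35 on this scale. The other 3 segments were TRBJ1-3 with 0.37 (adjusted p 0.0303), TRBJ1-1 with 0.30 (0.0353) and TRBV2 with 0.23 (0.0353), all by limma, and their shares of clonotypes differed by -0.02, -0.02 and 0.03. TRBV24 and TRBV1, at -0.24 and -0.21, had adjusted p values of 0.0518 and 0.0529 (limma). TRBJ1-5 was higher in both parts, but the larger part lay in the share of clonotypes, with 0.70 there and 0.34 in the ratio (adjusted p 0.0529, limma). TRBJ1-4 was split, with 0.14 and 0.13. In no segment were the 2 arms fully separate in this ratio (0 of 24).

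**Figure D2:**
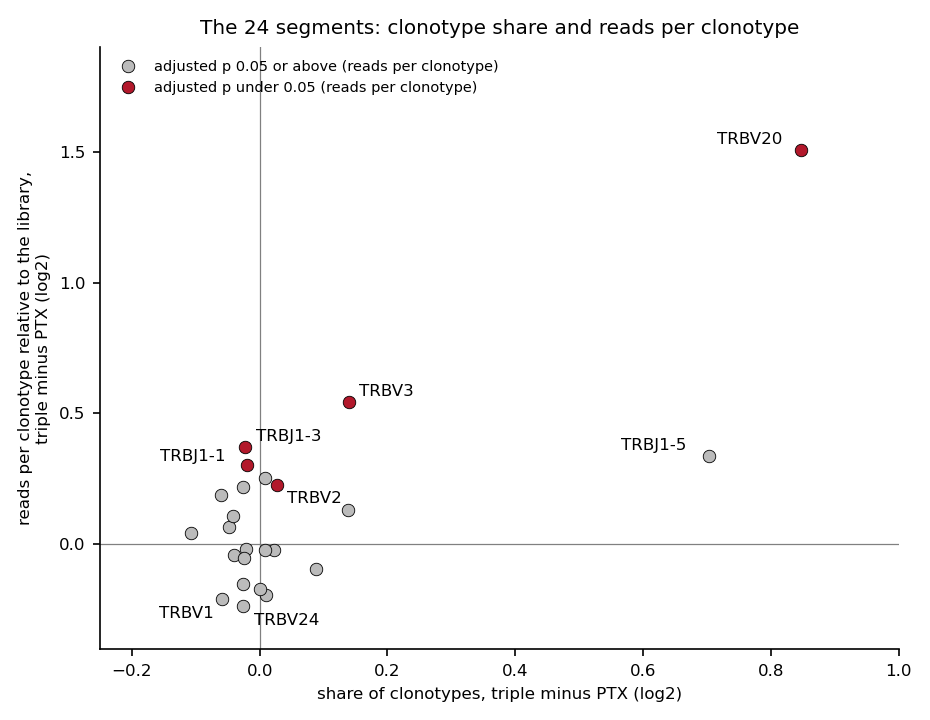
Each point is 1 of the 24 segments; the horizontal axis gives the triple minus PTX difference in the share of clonotypes (log2) and the vertical axis the difference in reads per clonotype relative to the library (log2). Red points passed an adjusted p of 0.05 for reads per clonotype (limma); apart from TRBV20, TRBJ1-5, TRBV3 and TRBJ1-4 the points lie close to 0 on the horizontal axis and spread along the vertical axis.

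The same pattern of reads per clonotype varied among mice that the labels treat alike. Among the 3 d95 PLX+PTX mice, which received PLX3397 and PTX without aPD-1 and are not part of the comparison, the TRBV3 ratio was 0.812, 0.302 and 0.597, and the TRBV3 share of reads 10.8%, 3.34% and 6.43%. The first of these libraries lay with triple therapy, and the other two lay with the PTX libraries or beyond them. When these 3 libraries entered the fit, the log2 difference of TRBV3 between triple therapy and PTX stayed at 0.68, the adjusted p became 0.200 and no segment was called (4 at an unadjusted p under 0.05, edgeR). The authors' normalized clone count, which rescales reads by segment pair, gave log2 differences of 0.54 for TRBV3 and 2.27 for TRBV20, each with an adjusted p of 0.0352 (limma). Whether amplification, DNA quality or cell composition moved with the ratio was not tested, and no batch label is given for these libraries.

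Clonotypes with at least 5 reads had, in the median, 26 to 48 reads for TRBV3 in the triple therapy libraries other than R 5, 23 in R 5 and 14 to 28 in the PTX libraries. For TRBV24 these medians were 28 to 63 and 36 to 52. For TRBV20 they were 5 to 21 under triple therapy and 6 in both PTX 1 and PTX 2. PTX 3 gave no value because no TRBV20 clonotype reached 5 reads there, so its whole TRBV20 share lay in clonotypes below that minimum. The TRBV20 ratio thus rests on clonotypes with few reads. These medians are not scaled to the library, and over all segments they were 25 to 49 under triple therapy and 30, 38 and 25 in PTX 1 to PTX 3. TRBV3 lay below the all-segment median in each PTX library, at 25, 28 and 14. Among triple therapy libraries R 5 lay below it, at 23 against 29, and the others lay close to it or above. PTX 2 lay above R 3 and R 5 in the raw TRBV3 median, but its all-segment median was also higher, at 38 against 25 and 29.

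The pairing of TRBV and TRBJ segments was tested next, to see whether a segment difference was carried by 1 joining partner. Of 88 pairs, 11 were called (12.5%), 10 higher under triple therapy (11.4%) and 1 lower (1.14%), and 26 had an unadjusted p under 0.05 (edgeR). TRBV3 accounted for 6 of them: all 8 TRBV3 pairs tested were higher under triple therapy, with log2 differences of 0.53 to 1.00 and a median of 0.61. The strongest was TRBV3 with TRBJ1-1, at 1.74%, 1.56%, 1.31%, 1.37% and 0.858% of the reads in R 1 to R 5, 1.39%, 1.22% and 1.59% in NR 1 to NR 3, and 0.819%, 0.797% and 0.458% in PTX 1 to PTX 3. These arms did not overlap; the log2 difference was 1.00 with a standard error of 0.20 and an adjusted p of 0.00565 (edgeR).

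The largest pair by share, TRBV3 with TRBJ2-7, held 5.71% ± 0.758 of the reads (n = 8) against 3.73% ± 0.754 (n = 3), a log2 difference of 0.61 with an adjusted p of 0.0194 (edgeR), and R 5 lay between PTX 1 and PTX 2. The other called TRBV3 pairs had log2 differences of 0.93 with TRBJ1-3, 0.73 with TRBJ2-2, 0.60 with TRBJ1-6 and 0.53 with TRBJ1-2. TRBV20 with TRBJ2-7, the 1 TRBV20 pair abundant enough to test, was at 0.165% ± 0.0993 against 0.0327% ± 0.0314, a log2 difference of 2.33. The 3 further pairs called higher were TRBV4 with TRBJ1-1 (log2 difference 0.69), TRBV2 with TRBJ1-4 (0.64) and TRBV2 with TRBJ2-4 (0.42). The 1 pair called lower was TRBV1 with TRBJ2-5, at 2.62% ± 0.277 (n = 8) against 3.58% ± 0.436 (n = 3), a log2 difference of -0.45 with an adjusted p of 0.0194 (edgeR).

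Over all 88 pairs tested, called ones included, 51 had a log2 difference above 0. Counted by variable segment, all 10 TRBV2 pairs and all 8 TRBV4 pairs had a log2 difference above 0, against 2 of 10 TRBV1 pairs and 1 of 11 TRBV24 pairs. With TMM factors these counts were 9 of 10, 8 of 8, 1 of 10 and 0 of 11, and all 8 TRBV3 pairs stayed above 0. By joining segment, TRBJ1-1 pairs were above 0 in 8 of 9 cases, and in 6 of 9 with TMM factors or DESeq2. Of the 88 pairs, 8 (9.09%) had arms that did not overlap in reads, among them TRBV3 with TRBJ1-1 and TRBJ1-2, TRBV4 with TRBJ1-1 and TRBJ1-3, and TRBV2 with TRBJ1-4 and TRBJ2-4, and none did so when clonotypes were counted once. The call count was 0 with clonotypes counted once (7 at an unadjusted p under 0.05), 0 without PTX 3 (15), 2 without PTX 2, 20 without NR 1 and 22 without R 5 (edgeR), and 19 with DESeq2.

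**Figure D3:**
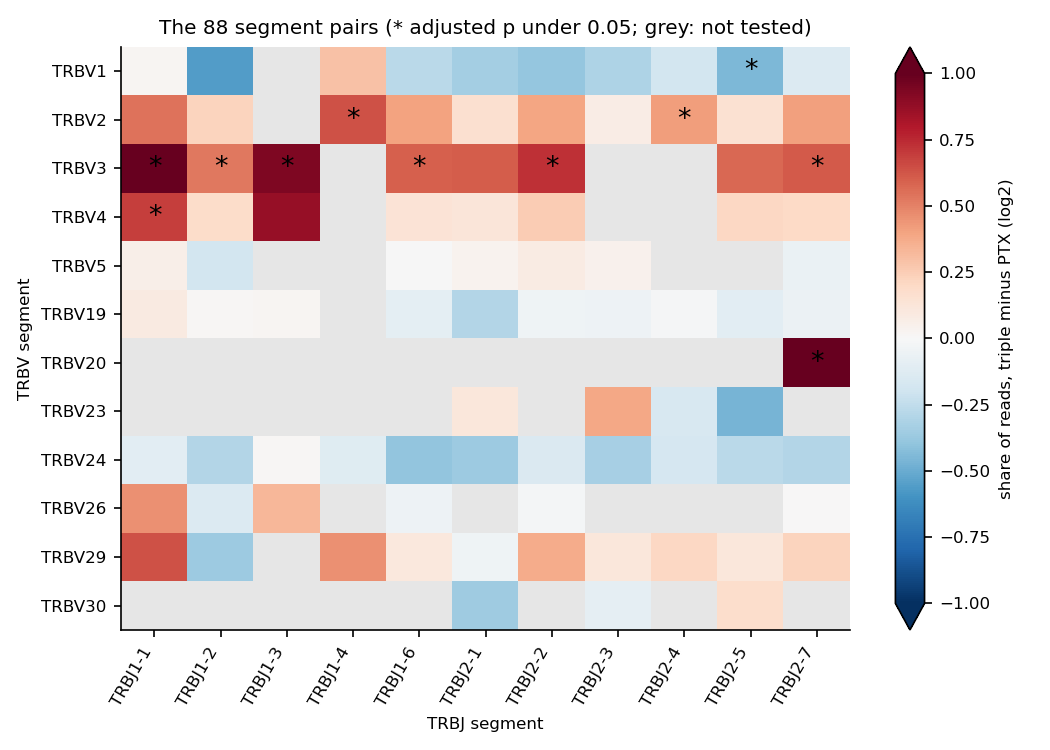
Log2 difference in the share of reads, triple therapy minus PTX, for the 88 pairs of TRBV (rows) and TRBJ (columns) tested; red is higher and blue lower under triple therapy, the scale is cut at 1 in either direction, and grey pairs were too rare to test. Asterisks mark the 11 pairs with an adjusted p under 0.05 (edgeR), 6 of which lie in the TRBV3 row.

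Single clonotypes were compared where at least 6 of the 11 libraries held them. This filter is one-sided: a clonotype with no PTX read passed only through triple therapy libraries, and one found in the 3 PTX libraries alone could not be tested. Of the 828 clonotypes tested, 40 had no read in PTX and 0 had no read in triple therapy. None of the 828 differed after adjustment (0% called), while 40 had an unadjusted p under 0.05 (edgeR), 67 with limma and 55 with DESeq2. DESeq2 called 1 clonotype and gave no adjusted p for 200 clonotypes. The median log2 difference of the 828 clonotypes was -0.03 with edgeR, -0.93 with DESeq2 and 0.16 with edgeR and TMM factors. That clonotype, TRBV26 TRBJ1-1 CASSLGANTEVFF, also had the lowest p in edgeR (adjusted p 0.448) and an adjusted p of 0.00254 in DESeq2. It was found at 135, 136, 60.05, 1047 and 117 reads per 1000000 in R 1 to R 5 and at 518, 69.6 and 193 in NR 1 to NR 3, and it had no read in PTX 1 to PTX 3. By counting error of reads alone, a count of 0 allows up to 6.93, 5.88 and 10.4 reads per 1000000 in these 3 libraries, a limit of 3 reads each. Reads are not independent molecules, so these limits do not bound how many cells carried the clonotype. The median nucleotide clonotype had 18, 22 and 14 reads in PTX 1 to PTX 3. This clonotype had 26 reads in R 3 and 29 in NR 2. All 8 triple therapy libraries lay above those limits. With no PTX read the clonotype could pass the filter only through triple therapy libraries, so this is a description and not a further test. R 4 was high and its reads made this the most abundant clonotype of that library. It was written by 7 nucleotide forms in the 11 libraries, and the leading form printed above was found in 1 of them with 49.7% of its reads. Outside the comparison it was found in 1 of 3 PLX+PTX libraries at d95 and in 17 of 23 libraries at d105. Of these 17, 9 were among the 10 triple therapy mice and 0 among the 2 PTX mice. The rest came from d105 groups whose labels do not name aPD-1, so presence at d105 was not particular to triple therapy. The 2 PTX libraries held the fewest clonotypes of that day, 39786 and 22548.

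The next 4 clonotypes by p that were higher under triple therapy had no read in any PTX library and were each found in 6 or 7 triple therapy libraries. The filter required at least 6 such libraries of any clonotype without a PTX read, so this distribution is a description of how they passed. They were TRBV19 TRBJ2-7 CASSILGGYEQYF, TRBV2 TRBJ2-5 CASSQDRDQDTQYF, TRBV24 TRBJ2-1 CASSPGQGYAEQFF and TRBV1 TRBJ2-7 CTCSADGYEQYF, each with an adjusted p of 0.448 (edgeR). At d105 these 4 were found in 16 to 22 of the 23 libraries. In the other direction TRBV1 TRBJ2-3 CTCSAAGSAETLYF was found in all PTX libraries, at 360, 390 and 216 reads per 1000000, and in R 1, R 2 and R 3 at 50.3, 131 and 94.7, with no read in the other 5 triple therapy libraries (adjusted p 0.998, edgeR). TRBV1 TRBJ2-5 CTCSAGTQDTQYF was likewise found in 3 of 3 PTX and 3 of 8 triple therapy libraries (adjusted p 0.998, edgeR).

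Presence alone separated few clonotypes. The 11 libraries held 171503 clonotypes, of which 151274 were found in 1 library, 10117 in both arms and 6 in all 11. Of the 103 clonotypes found in at least 7 triple therapy libraries, 8 (7.77%) had no read in PTX. Besides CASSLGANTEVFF these included TRBV24 TRBJ2-5 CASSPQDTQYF and TRBV1 TRBJ1-1 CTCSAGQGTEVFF and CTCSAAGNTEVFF, each at a mean of 91.9 to 117 reads per 1000000 under triple therapy. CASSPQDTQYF was found in all 3 PLX+PTX libraries and in both d105 PTX libraries. Of the 274 clonotypes found in all 3 PTX libraries, 11 (4.01%) had no read in any triple therapy library. TRBV1 TRBJ2-1 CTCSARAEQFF was at 152, 147 and 247 reads per 1000000 in the PTX libraries, and TRBV19 TRBJ1-1 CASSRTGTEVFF at 92.4, 143 and 86.9. At d105 the first was found in 7 of 23 libraries and the second in 1.

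The clonotypes found in all 11 libraries varied widely between mice of the same arm. TRBV19 TRBJ2-7 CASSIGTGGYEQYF, with the highest mean share among them, was at 760 ± 357 reads per 1000000 (n = 8) against 377 ± 401 (n = 3), and PTX 2 held it at 1.96. Among the TRBV3 clonotypes printed above, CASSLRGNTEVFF was at 181 ± 96.4 against 65.9 ± 28.3, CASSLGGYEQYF at 306 ± 193 against 157 ± 149, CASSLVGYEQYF at 324 ± 288 against 116 ± 52.0, and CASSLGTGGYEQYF at 217 ± 190 against 295 ± 205. None of these differences passed the test (adjusted p 0.998, edgeR). The 5 most abundant of them had 5 to 12 junction bases in the leading form, and each was written by 9 to 19 nucleotide forms in the 11 libraries.

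The largest clonotype of each library was small. It held 0.0702% to 0.105% of the reads in R 1 to R 4, 0.266% in R 5 (95% Wilson interval 0.252% to 0.280%), 0.263% in NR 1 (0.231% to 0.298%), 0.108% in NR 2 and 0.173% in NR 3. In PTX 1 to PTX 3 it held 0.0806%, 0.0990% and 0.0890%. No clonotype was the largest in 2 libraries. The largest of NR 3, TRBV3 TRBJ1-2 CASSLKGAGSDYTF, that of R 1, TRBV1 TRBJ1-1 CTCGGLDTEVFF, and that of R 2, TRBV1 TRBJ2-5 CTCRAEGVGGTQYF, were found in no other library of either day, whereas that of PTX 1, TRBV24 TRBJ2-7 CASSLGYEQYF, was found in 5 triple therapy libraries and 22 of 23 libraries at d105.

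Measures of the whole repertoire gave 10 tests, each an exact permutation test over all ways to choose 3 of 11 mice, 2-sided, whose smallest possible p was 0.0121. None passed after adjustment over the 10, and none had an unadjusted p under 0.05. At an equal depth of 90648 reads, triple therapy libraries held 2425 to 20629 clonotypes with a median of 15292, and PTX libraries 14300.1, 12426 and 11234. The means were 14360 ± 5739 (n = 8) and 12653 ± 1546 (n = 3), with an exact permutation p of 0.606 (adjusted 0.752). The R libraries, at 14300.0 to 20629, lay mostly above PTX, and the NR libraries, at 2425, 11129 and 13612, lay within or below it. Without NR 1 and at 287575 reads the difference was 4237 clonotypes with an exact permutation p of 0.150.

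Clonality, which runs from 0 for equal clonotypes to 1 for a single clone, was 0.0510 ± 0.00407 (n = 8) against 0.0517 ± 0.00211 (n = 3), with an exact permutation p of 0.642. Without NR 1 the difference in clonality was -0.0021 with an exact permutation p of 0.133 (adjusted 0.424). The 10 largest clonotypes together held 0.869% ± 0.490 of the reads (n = 8) against 0.672% ± 0.0528 (n = 3), an exact permutation p of 0.533, and NR 1 alone was above 1% at 2.05%. Without NR 1 the triple therapy mean was 0.701% ± 0.123. Expanded clonotypes, each with at least 0.1% of the reads, held 3.09% ± 8.35 of the reads (n = 8) against 0 in all 3 PTX libraries, an exact permutation p of 0.121. In NR 1 there were 191 such clonotypes with 23.7% of the reads; the other 7 triple therapy libraries had 0 to 2 each, with a mean share of 0.137% ± 0.116. NR 1 also had the lowest depth and clonotype number, and their part in its expanded clonotypes was not tested.

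**Figure D4:**
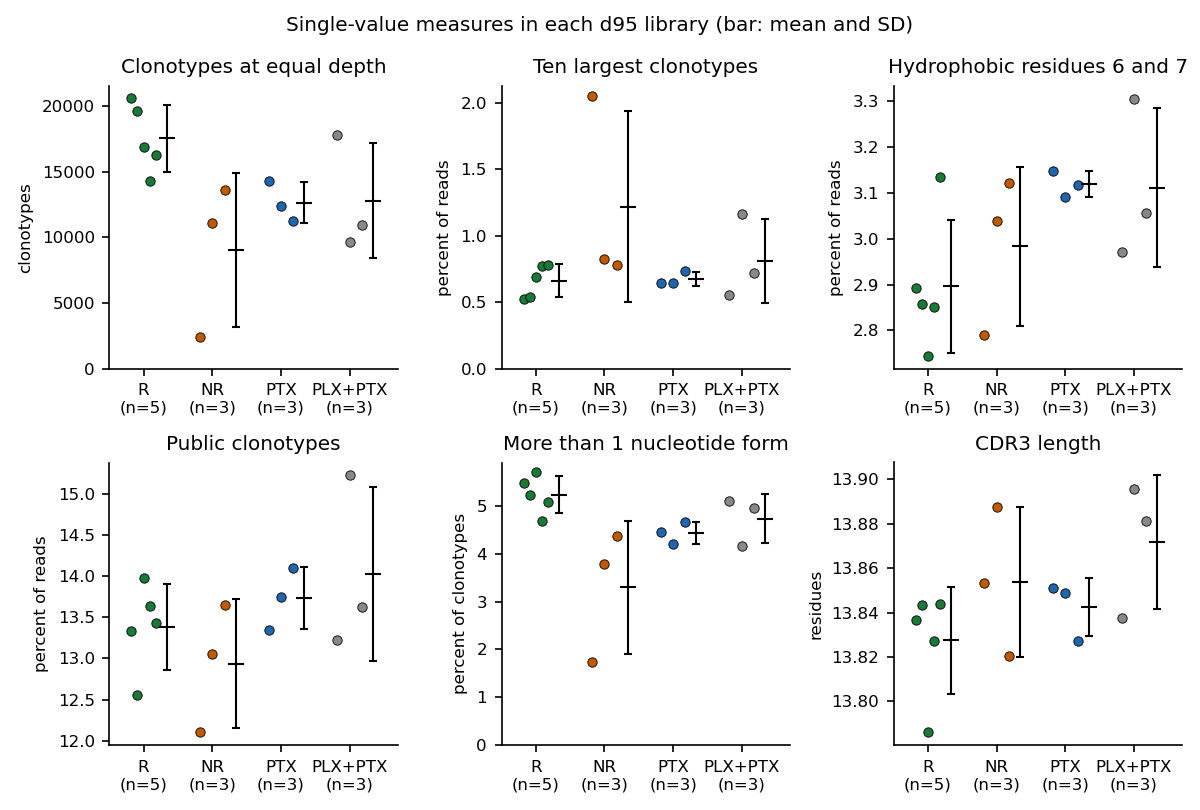
Measures of the repertoire in each d95 library: clonotypes at 90648 reads, percent of reads in the 10 largest clonotypes, in clonotypes with hydrophobic residues at positions 6 and 7 and in public clonotypes, percent of clonotypes with more than 1 nucleotide form, and mean CDR3 length in residues. Points are libraries and bars the mean and SD of R (n = 5), NR (n = 3), PTX (n = 3) and PLX+PTX (n = 3); the axes for hydrophobic residues, public clonotypes and length do not start at 0. NR 1 is the lowest point for clonotypes, at 2425, and the highest for the 10 largest clonotypes, at 2.05%.

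No difference in the shape of the CDR3 passed the test. Its mean length weighted by reads was 13.84 ± 0.03 residues (n = 8) against 13.84 ± 0.01 (n = 3), an exact permutation p of 0.727. CDR3s of 14 residues were the most frequent class, with 30.2% ± 0.651 of the reads against 30.4% ± 0.640, followed by 13 residues with 22.7% ± 0.644 against 22.3% ± 0.174. The mean number of junction bases was 9.56 ± 0.07 against 9.54 ± 0.05, an exact permutation p of 0.691. Hydrophobic residues at both positions 6 and 7 of the CDR3, counted from its first cysteine, have been linked to self-reactivity. They were found in 2.93% ± 0.150 of the reads under triple therapy (n = 8) and 3.12% ± 0.0284 in PTX (n = 3), with an exact permutation p of 0.0848 (adjusted 0.566). The 3 PTX libraries, at 3.15%, 3.09% and 3.12%, were closely grouped, and NR 3 and R 5 lay at their level.

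Measures of sharing between mice did not pass the test either. Public clonotypes, defined as those found in at least 50% of the 23 d105 libraries, numbered 5242 and held 13.2% ± 0.620 of the reads under triple therapy (n = 8) and 13.7% ± 0.378 in PTX (n = 3), an exact permutation p of 0.170 (adjusted 0.566). Convergence, the percent of clonotypes written by more than 1 nucleotide form, was 4.51% ± 1.28 against 4.44% ± 0.235, an exact permutation p of 0.752. Without NR 1 the difference in convergence was 0.47 percentage points, against 0.07 with it, with an exact permutation p of 0.283 (adjusted 0.708). The R libraries alone were at 4.69% to 5.72%, above the 4.20% to 4.67% of PTX, with an exact permutation p of 0.0357 that is the smallest 5 against 3 mice can give and an adjusted p of 0.357. Thinned to 90648 reads, the difference between all triple therapy and PTX libraries was 0.13 percentage points with an exact permutation p of 0.691.

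The Morisita-Horn index, which compares the clonotype frequencies of 2 libraries and is 1 when they are equal, averaged 0.0914 over the 28 pairs of triple therapy mice, 0.0920 over the 3 pairs of PTX mice and 0.0893 over the 24 pairs between arms. The within-arm mean was above the between-arm mean by 0.0022, an exact permutation p of 0.594 over mice. NR 1 lowered all of its pairs, with a mean of 0.0269 over its 10 pairs. Without it the means were 0.112 within triple therapy and 0.0986 between arms, and the difference between within-arm and between-arm pairs was 0.0113 with an exact permutation p of 0.0667 (adjusted 0.404). Among R mice the mean was 0.124, and between R and PTX mice 0.104.

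**Figure D5:**
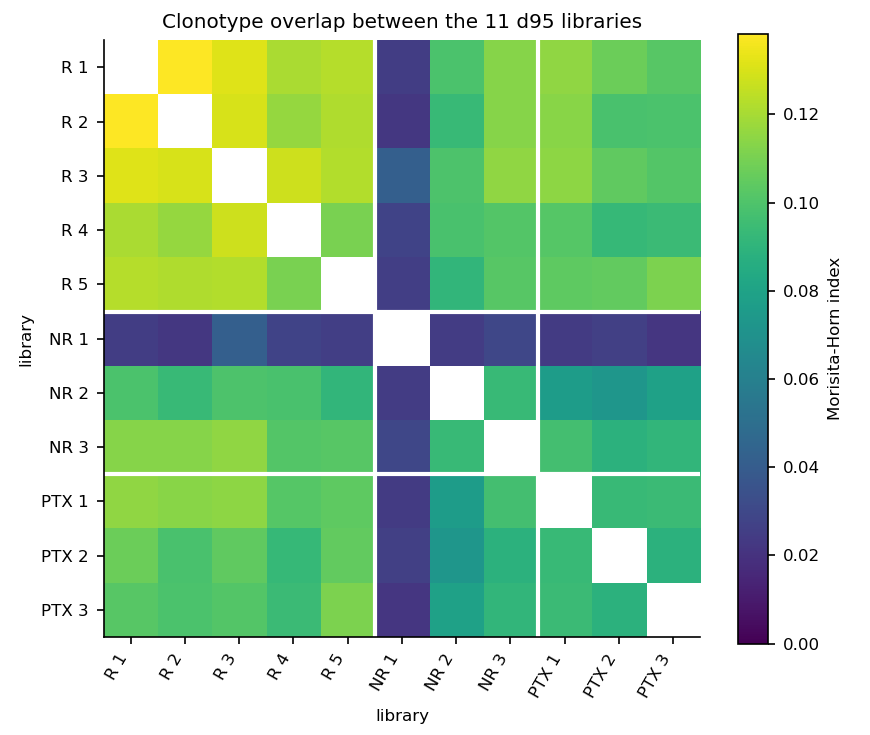
Morisita-Horn index of clonotype frequencies for every pair of the 11 libraries, with white lines between R, NR and PTX libraries and the diagonal left blank. The row and column of NR 1 are darkest, with a mean of 0.0269, and pairs among R libraries are brightest, with a mean of 0.124.

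The difference in TRBV3 and TRBV20 was not seen at the later time point d105, where 10 triple therapy mice stood against 2 PTX mice. There TRBV3 made up 10.9% ± 1.15 of the reads under triple therapy (n = 10) and 11.4% in both PTX libraries, a log2 difference of -0.07, and TRBV20 made up 0.938% ± 0.311 against 1.06% and 1.22%, a log2 difference of -0.28 (adjusted p 0.947 for both, edgeR). At d105 1 of 24 segments was called (4.17%), TRBJ1-6, which was higher under triple therapy with a log2 difference of 0.24 (adjusted p 0.00752, edgeR). The difference between the days was tested as an interaction added after the d95 calls were seen, and 4 of 24 segments passed (16.7%). These were TRBV3 with a log2 change of 0.75 (adjusted p 0.00616), TRBV20 with 2.56 (0.0148), TRBJ1-1 with 0.32 (0.0357) and TRBJ1-6 with -0.32 (0.00616), as d95 minus d105 by edgeR. The d105 triple therapy libraries held 1455363 to 2449606 reads and the d105 PTX libraries 1090573 and 1489496, all more than any d95 library of either arm, so day and depth cannot be told apart in this contrast.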

How the data were processed

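Genomic DNA of the TRB locus from lymph nodes was amplified and sequenced, per the labels' protocols. The deposited clone counts are whole reads per clonotype, and the deposited normalized clone count is a score, named so per the file headers, that the values show to be the count times a factor for each segment pair. Not given in the sources used here are the clonotype caller, the origin of the rescaling and the genome build. Files listed 0 unproductive and 0 duplicate entries.

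Segments and segment pairs with a mean share of at least 0.1%, and clonotypes present in 50% or more of the 11 libraries, were tested on counts with edgeR 4.0.16 (quasi-likelihood, total reads as library size, R 4.3.3), limma 3.58.1 and DESeq2 1.42.0 serving as alternatives. For shares, limma used log2 of percent plus 0.01 for segments and pairs and log2 of reads per 1000000 plus 10 for clonotypes. For reads per clonotype, limma used log2 of the segment's reads per clonotype over that of its library, with nothing added. Adjustment was by Benjamini-Hochberg over all features of a fit, with a threshold of 0.05. Single values were compared by exact permutation tests that listed all regroupings (Python 3.11.15, numpy 2.4.6), 2-sided, adjusted over the 10 tests. Richness and shared counts were computed at 90648 reads, and the Morisita-Horn index on all reads unless stated. Only the main edgeR fits of segments, segment pairs and clonotypes were tried on simulated data. The limma and DESeq2 fits and the day contrast were not.

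All segments tested are given; called segments and the 5 lowest p are described in full, as are up to 10 called pairs per direction. Named clonotypes are the 5 lowest p per direction, the largest of each library, the 5 with the highest mean share among those in all 11 libraries, and up to 5 found in at least 7 of 8 triple therapy and 0 PTX libraries or in 3 of 3 PTX and 0 triple therapy libraries; not all are printed. The members and lists were chosen with earlier results of these data known. Each library is 1 mouse, and p-values measure the spread between these mice. The labels name no molecular identifiers, so reads are not independent molecules, and intervals and limits cover counting error only. Alternatives were other scalings, filters, clonotypes counted once, the authors' score, R or NR alone, all 14 d95 libraries and each library left out; a minimum of 5 reads, the files' own segment ends, reads per clonotype, the day contrast and the FVB/N list without single libraries were added after seeing the data.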

Additional observations from a re-analysis of the deposited data

Results flagged for a closer look

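Of 66 groups of values checked for a sample far from the others, 8 held such a sample; chance marks about 5% of such groups. Of these, 6 came from NR 1, the library with 90648 reads, within the 8 triple therapy libraries: a clonality of 0.0603, 2.05% of reads in the 10 largest clonotypes, 23.7% in expanded clonotypes, and shares of reads of 0.768% for TRBV30, 3.70% for TRBV5 and 8.27% for TRBJ2-4. Within the 5 R libraries, R 3 had a short mean CDR3 of 13.79 residues and R 5 a low TRBV29 share of 5.84%.

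The triple therapy minus PTX difference changed between days for 4 of 24 segments by an interaction test (edgeR). The log2 change, d95 minus d105, was 2.56 for TRBV20, 0.75 for TRBV3, 0.32 for TRBJ1-1 and -0.32 for TRBJ1-6. The d105 PTX group holds 2 mice, and the reads per library differ between the days without overlap.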

How the results depend on the processing

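No paired analysis was possible because the replicate numbers only follow the order of deposition and pair no mice. Over the 10 single-value tests, 142 alternatives kept the direction of the difference and 14 reversed it, none past the adjusted threshold. The cause of the reversals was not tested. With NR libraries only, richness differed by -3598 clonotypes, clonality by 0.0014, CDR3 length by 0.011 residues and convergence by -1.14 percentage points. With R libraries only, the share of the 10 largest clonotypes differed by -0.012 percentage points. The authors' normalized clone count gave 0.0031 for clonality and -0.0093 bases for junction length. Leaving out 1 library at a time gave -0.013 to 0.0023 residues for CDR3 length, -0.098 to 0.47 for convergence and -0.00062 to 0.0113 for the overlap difference.

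The 2 segment calls became 9 with TMM factors, 10 with DESeq2, 4 with no filter on share and 1, TRBV3, with a minimum of 5 reads. They became 0 with clonotypes counted once, 0 with all 14 d95 libraries (4 at an unadjusted p under 0.05, edgeR) and 0 to 12 with 1 library left out. The 11 pair calls became 19 with DESeq2, 0 with clonotypes counted once, 0 with all 14 libraries (15 at an unadjusted p under 0.05, edgeR), 0 with R only (29), 0 with NR only (15) and 0 to 22 with 1 library left out. No clonotype was called with edgeR or limma, and 1 with DESeq2. TRBV3 and TRBV20 kept their direction under all 21 alternatives, at log2 differences of 0.14 to 0.77 and 0.76 to 3.24. Except for the runs with fewer libraries, the cause was not tested.

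Segments that were not called changed sign, given here as log2 differences; TRBJ1-1, TRBJ1-3, TRBJ2-3 and TRBJ2-5 among them were at 0.28, 0.34, -0.18 and -0.17 in reads. With clonotypes counted once these were TRBV23 (0.00099), TRBV26 (-0.036), TRBV29 (-0.020), TRBV30 (0.067), TRBJ1-1 (-0.032), TRBJ1-2 (0.0015), TRBJ1-3 (-0.020), TRBJ2-2 (-0.062), TRBJ2-3 (0.0035), TRBJ2-4 (0.085), TRBJ2-5 (0.0040) and TRBJ2-7 (-0.042), and the pairs TRBV3 TRBJ2-7 (-0.016), TRBV3 TRBJ1-2 (-0.040) and TRBV2 TRBJ2-4 (-0.012), all 3 called in reads. With NR only they were TRBV19 (0.082), TRBV23 (0.085), TRBV26 (-0.072) and TRBJ2-4 (0.059), and with R only TRBV5 (0.066). TRBV26 was at -0.036 with TMM factors, -0.020 with DESeq2 and -0.048 with the authors' normalized count, which put TRBJ2-4 at 0.11. With 1 library left out, TRBV23 ran from -0.22 to 0.063, TRBV26 from -0.019 to 0.061, TRBV30 from -0.15 to 0.069, TRBV5 from -0.048 to 0.056, TRBJ1-2 from -0.077 to 0.049 and TRBJ2-4 from -0.050 to 0.019.

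With 3 PTX mice the exact tests could not go below 0.0121, and the calls depended on PTX 3. Rare clonotypes are limited by depth: 3 reads correspond to 5.88 to 10.4 reads per 1000000 in the PTX libraries.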
